A study of Sus scrofa with 24 samples.

Results

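ND3 and 6 other subunits of the respiratory chain that are encoded in mitochondrial DNA (ND1, ND2, ND5, ND6, CYTB and COX1) were described in the uterotubal junction (UTJ) of the sow, the short segment between uterus and oviduct where sperm are held after mating. They were chosen by symbol, with earlier results of these same arrays already known. The p-values and counts given below for the 6 other than ND3 are therefore descriptive. Of 10 mitochondrially encoded genes sought, 7 had a probe set whose only symbol in the array's annotation was that gene, among 27558 probe sets in all, of which 13327 carried 1 symbol. Each of the 7 had a single probe set, so no choice between probe sets was needed. ND4 and ND4L shared 1 probe set, and COX3 shared 1 with ATP8 and ATP6. These 3 genes therefore had no value of their own, and the shared probe sets are given below under all of their symbols. ND3 was singled out on its difference from control in earlier results of these same arrays, so its values are a description and carry no test.

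The arrays were Affymetrix Porcine Gene 1.0 ST, hybridised with labelled cDNA from total RNA of whole UTJ tissue of 12 Swedish Landrace sows in oestrus. There were 8 arrays labelled mated (sows mated with boars), 8 labelled SP-infused (50 ml of sperm-free seminal plasma, SP) and 8 labelled control (50 ml of BTS, Beltsville Thawing Solution, a semen extender). The control sows are elsewhere described as neither mated nor inseminated, and the array label was followed here. All tissue was taken by surgery within 24 h of treatment, and the labels give no age of the sows. Both junctions of the 4 sows per group were sampled, but the labels do not say which arrays share a sow. The test therefore treats the 8 arrays of a group as separate, so its p-values and standard errors (SE) are too small and its intervals too narrow. Over the genes that the study lists for each treatment, the differences computed by these labels bear little relation in direction to those listed there, so every direction below rests on the array labels.

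Mitochondrial DNA carries a small set of protein genes, and all of their products are core parts of the oxidative phosphorylation machinery of the inner membrane. The ND subunits belong to complex I, which takes electrons from NADH, CYTB is the catalytic cytochrome b of complex III, and COX1 is the subunit of complex IV where oxygen is reduced. The other subunits of these complexes are encoded in the nucleus and imported. Both strands of the mitochondrial genome are transcribed as long precursors that are cut, largely at the transfer RNAs between the genes, and ND6 is the one protein gene on the strand opposite to the rest. In the oviduct, the beating of cilia and the contraction of smooth muscle both use ATP. The gene table of the pig assembly Sscrofa11.1 lists 37 mitochondrial genes, 13 of them protein-coding. All 7 measured genes were found there by gene number on the MT sequence. Among the protein-coding genes ND3 lies between COX3 and ND4L, CYTB follows ND6, and COX1 lies between ND2 and COX2.

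The values are log2 intensities, for which 1 unit is a doubling. Array medians over all probe sets ran between 5.75 and 5.87 in mated arrays, between 5.80 and 5.90 in SP-infused arrays and between 5.80 and 5.99 in controls. Control replicate 1 had the narrowest spread, with an SD of 1.91, whereas the SD of the other controls was between 2.06 and 2.13. Smooth muscle markers were strong in the tissue, with ACTA2 (smooth muscle actin) at a mean of 12.01 in mated arrays, 11.89 in SP-infused arrays and 11.96 in controls. The ciliary regulator FOXJ1 averaged 7.28, 7.57 and 7.62 in the same 3 groups, and EPCAM, an epithelial adhesion molecule, 9.59, 9.96 and 9.99. Of the sperm markers PRM1 and PRM2 were not measured here, and TNP1, which packs sperm DNA, was at 2.83 in mated arrays, 2.81 in SP-infused arrays and 2.98 in controls. Over all probe sets the median log2 difference was slightly below 0, at -0.05 for mated against control and -0.04 for SP-infused against control, and 38.9% and 39.2% of probe sets were higher than in control in these comparisons.

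ND3 was higher in nearly every mated and SP-infused array than in any control array. ND3 is a small membrane subunit of complex I near the site where electron transfer is coupled to proton pumping. In mated arrays its lowest value was 12.11, its median 12.41 and its highest 12.58. In SP-infused arrays it was 12.13 at the lowest, 12.36 at the median and 12.48 at the highest, and in control arrays 11.96, 12.05 and 12.29. The 2 treated groups lay together above control, and 7 of 8 mated and 7 of 8 SP-infused arrays exceeded the highest control array, which was control replicate 7. The exception in each treated group was replicate 4, which lay within the control range.

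ND3 averaged 12.40 ± 0.14 in mated arrays, 12.35 ± 0.11 in SP-infused arrays and 12.08 ± 0.10 in controls (SD, n = 8 arrays each). The log2 difference was 0.32 for mated against control (SE 0.07), a 1.25-fold higher level. For SP-infused against control it was 0.27 (SE 0.07), or 1.21-fold. Mated and SP-infused arrays differed by 0.05 (SE 0.07), which is less than the SD between arrays of either group. Both comparisons with control use the same 8 control arrays. The tissue was bulk, so that more cells rich in this transcript and more transcript per cell cannot be told apart, here and for the genes that follow.

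**Figure D1:**
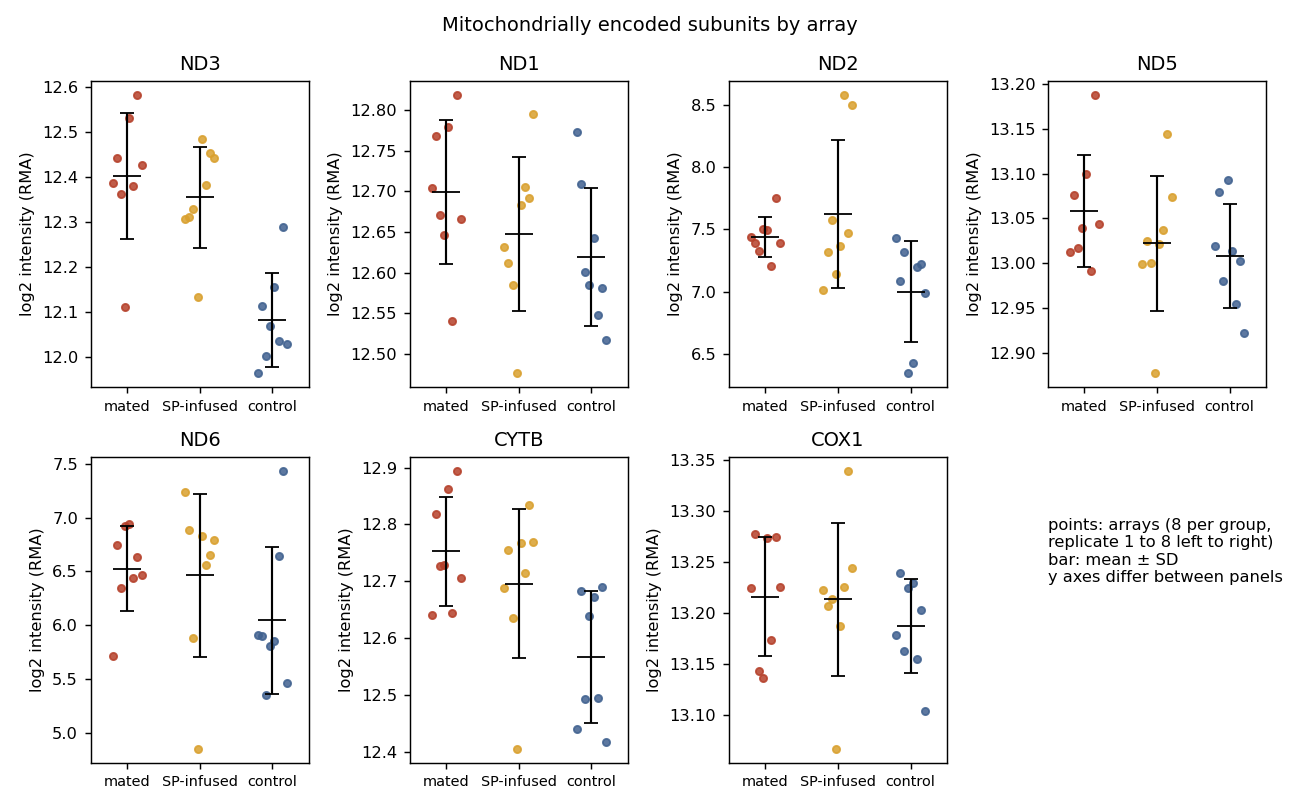
Log2 intensity of 7 mitochondrially encoded genes in each array (points, 8 per group), with the mean and SD of the group (bars); the y axis differs between panels. For ND3, 7 of 8 mated and 7 of 8 SP-infused arrays lie above all control arrays, whereas for ND1, ND5 and COX1 the groups overlap over most of their range.

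Among the other complex I genes, ND1 and ND5 showed small differences between groups. ND1, which sits where the peripheral arm of the complex meets its membrane arm, ran between 12.54 and 12.82 in mated arrays with a median of 12.69. It ran between 12.48 and 12.79 in SP-infused arrays (median 12.66) and between 12.52 and 12.77 in control arrays (median 12.59). Only 2 mated arrays and 1 SP-infused array lay above the highest control array, so the groups overlapped almost completely. ND1 was 0.08 higher in mated than in control arrays (SE 0.06; limma, adjusted p = 0.634) and 0.03 higher in SP-infused than in control arrays (SE 0.06, adjusted p = 0.952).

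ND5 is one of the antiporter-like proton-pumping subunits. Its range was 12.99 to 13.19 in mated arrays (median 13.04), 12.88 to 13.14 in SP-infused arrays (median 13.02) and 12.92 to 13.09 in control arrays (median 13.01). The 3 medians differed by less than the SD of 0.06 to 0.08 within the groups. The differences were 0.05 for mated against control (adjusted p = 0.741 by limma) and 0.01 for SP-infused against control (adjusted p = 0.973).

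ND2, another antiporter-like subunit, differed more between groups and far more between arrays. In mated arrays it lay between 7.20 and 7.75 with a median of 7.41. In SP-infused arrays it lay between 7.02 and 8.58 with a median of 7.42, and in control arrays between 6.34 and 7.43 with a median of 7.14. The high end of the SP-infused group was made by replicates 6 (8.58) and 8 (8.50), while the other 6 arrays were at or below 7.57. The low end of the control group was made by replicates 4 (6.34) and 5 (6.43), and the other 6 control arrays were at 6.99 or above. All 8 mated arrays and 7 of 8 SP-infused arrays exceeded the control median, and 4 of 8 in each group exceeded the highest control array.

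The log2 difference of ND2 was 0.44 for mated against control (SE 0.20, unadjusted p = 0.0396, adjusted p = 0.418 by limma over all probe sets). It was 0.62 for SP-infused against control (SE 0.20, unadjusted p = 0.0049, adjusted p = 0.891). Neither passed the adjusted threshold of 0.05. Without SP-infused replicate 6 the difference from control was 0.48, and without control replicate 4 the difference of mated from control was 0.34.

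ND6 had the widest spread of the 7 genes. It is a membrane subunit of complex I, and its gene lies beside that of ND5 but on the opposite strand. It ran between 5.72 and 6.94 in mated arrays (median 6.55), between 4.85 and 7.23 in SP-infused arrays (median 6.72) and between 5.35 and 7.43 in control arrays (median 5.88). No mated or SP-infused array exceeded the highest control array, replicate 7, although 7 of 8 in each treated group exceeded the control median. The SP-infused group contained the lowest array of all, replicate 4. The difference from control was 0.48 in mated arrays (SE 0.29, adjusted p = 0.539 by limma) and 0.42 in SP-infused arrays (SE 0.29, adjusted p = 0.891). Without SP-infused replicate 4 SP-infused against control gave 0.65, and without control replicate 7 the difference of mated from control was 0.68. The sources used here do not give the strand that the probes read, so that ND6 and precursor RNA of the opposite strand across the same region cannot be told apart.

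CYTB, the complex III subunit, came closest to the pattern of ND3. Its lowest, median and highest values were 12.64, 12.73 and 12.89 in mated arrays. They were 12.41, 12.73 and 12.83 in SP-infused arrays and 12.42, 12.57 and 12.69 in control arrays. In mated arrays 6 of 8 values, and in SP-infused arrays 5 of 8, lay above the highest control array, and SP-infused replicate 4 lay below all control arrays. Mean levels were 12.75 ± 0.10 in mated arrays, 12.70 ± 0.13 in SP-infused arrays and 12.57 ± 0.12 in controls (SD, n = 8 each). The difference for mated against control was 0.19 (SE 0.07, unadjusted p = 0.0144, adjusted p = 0.363 by limma), a 1.14-fold higher level that did not pass the adjusted threshold. For SP-infused against control it was 0.13 (SE 0.07, unadjusted p = 0.0795, adjusted p = 0.891).

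COX1, the catalytic subunit of complex IV, had the smallest SD within groups and lay near the top of the scale, being the brightest probe set of all in mated replicate 7 (13.27). It ran between 13.14 and 13.28 in mated arrays (median 13.22), between 13.07 and 13.34 in SP-infused arrays (median 13.22) and between 13.10 and 13.24 in control arrays (median 13.19). The groups overlapped throughout, with 3 of 8 mated and 2 of 8 SP-infused arrays above the highest control. The differences from control were 0.03 in mated (adjusted p = 0.857 by limma; 95% interval -0.08 to 0.14) and 0.03 in SP-infused arrays (adjusted p = 0.950; 95% interval -0.09 to 0.14).

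Set against control, all 7 genes had a higher mean in mated and in SP-infused arrays. The difference exceeded the SD of the 24 arrays around their group means for 3 of the 7 in each comparison. These were ND2, CYTB and ND3, the last singled out for its difference. For CYTB in SP-infused against control it was 0.129, below the SD of 0.132 of the SP-infused arrays alone. The share of all probe sets past this mark was not computed, so the count is no result about the 7 genes. Higher means for all 7 in mated against control held under every alternative scaling, whereas with cyclic loess between arrays ND1, ND5 and COX1 were slightly lower in SP-infused than in control arrays, as was ND5 without SP-infused replicate 7. The median difference was 0.19 for mated against control (0.13 without ND3), beside -0.05 over all probe sets. Over the 17881 probe sets with a mean log2 value of 5 or more, that median was -0.03. For SP-infused against control the median difference of the 7 genes was 0.13 (0.08 without ND3), beside -0.04 over all probe sets and -0.01 over the same 17881. The size was uneven: within the same arrays, the difference of ND3 from control exceeded that of CYTB by 0.13 in mated and 0.14 in SP-infused arrays, that of ND1 by 0.24 in both and that of ND5 by 0.27 and 0.26. It was the smaller beside ND2 and ND6, with a gap of -0.12 and -0.35 to ND2 and of -0.16 and -0.14 to ND6. Because ND3 was singled out for its difference from control, these gaps are not a further result.

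For mated against control, 0 of the 6 genes other than ND3 passed an adjusted p of 0.05 in limma, as did 0% of all 27558 probe sets. At an unadjusted p under 0.05 it called 2 of 6, both higher (ND2 and CYTB). Of all probe sets, 2.88% were higher at that threshold and 11.4% passed it in either direction. Such shares, here and in the other comparisons, are no test of the 6 genes, which were chosen by symbol with earlier results known. With the array medians made equal ND1 joined ND2 and CYTB, and the share of all probe sets that were higher was 5.6%. Leaving out any of mated replicates 1, 4, 5 and 7 or control replicates 4, 5 and 8 left 1 of 6, CYTB, and leaving out control replicate 7 gave 3, with ND6.

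In SP-infused against control, limma called 0 of 6 at the adjusted threshold, beside 0% of all probe sets. The unadjusted threshold was passed by 1 of 6, ND2, which was higher, beside 1.40% of all probe sets that were higher and 5.15% in either direction. It was passed by 3 (ND2, ND6 and CYTB) without SP-infused replicate 4, by ND2 and ND6 without control replicate 7, and by ND2 and CYTB with the array medians made equal. In mated against SP-infused, limma called 0 of 6 at the adjusted threshold (0% of all probe sets) and 0 of 6 at the unadjusted one (3.34% of all probe sets in either direction). There, 6 of the 7 genes had a slightly higher mean in mated arrays with a median difference of 0.05, and ND2 was 0.18 lower (SE 0.20, adjusted p = 0.998). The direction of COX1 and ND6 between mated and SP-infused arrays turned when SP-infused replicate 4 was left out, to -0.02 for COX1 and -0.17 for ND6.

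**Figure D2:**
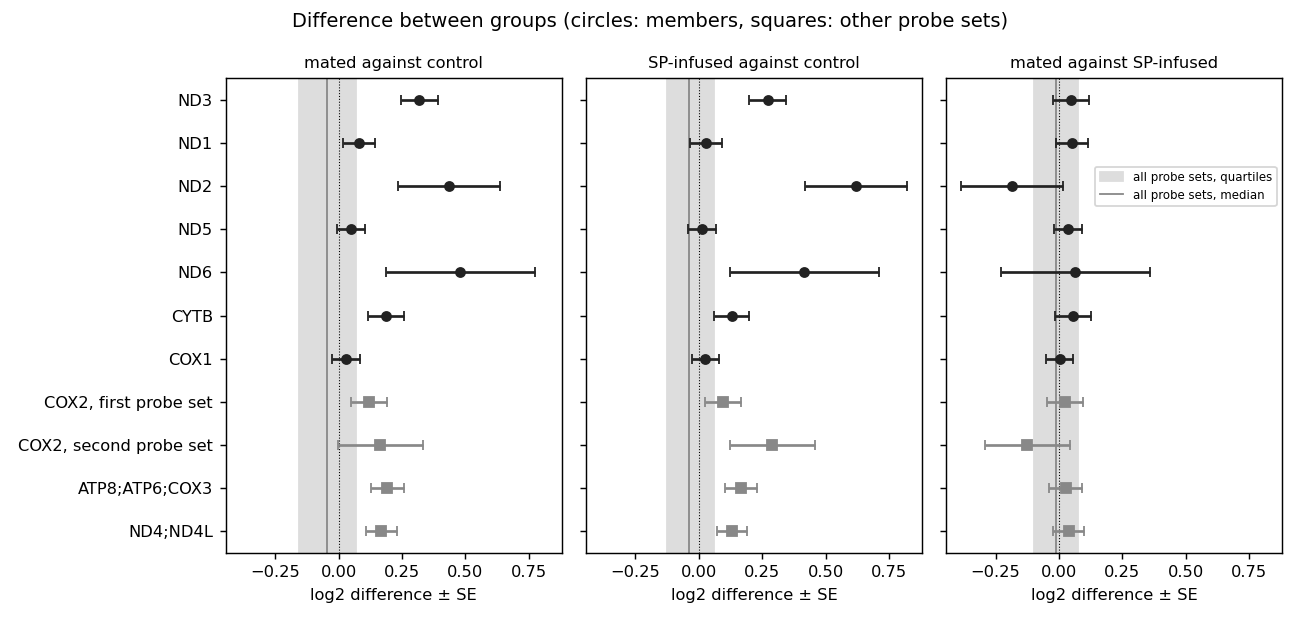
Log2 difference between groups with its standard error for the 7 genes (circles) and 4 further mitochondrially encoded probe sets (squares) in the 3 comparisons; the grey band spans the quartiles of all probe sets and the grey line is their median. In both comparisons with control all points lie to the right of 0, ND2 and ND6 with wide errors, while most points of mated against SP-infused lie near 0.

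The probe sets of the neighbouring genes were read beside these 7. The probe set shared by ATP8, ATP6 and COX3, which covers subunits of the ATP synthase and of complex IV, averaged 13.00 ± 0.08 in mated arrays, 12.97 ± 0.10 in SP-infused arrays and 12.80 ± 0.11 in controls (SD, n = 8 each). Its difference was 0.19 for mated against control (unadjusted p = 0.00653, adjusted p = 0.349 by limma) and 0.17 for SP-infused against control (adjusted p = 0.891). All 8 mated arrays and 7 of 8 SP-infused arrays were above its control median. The probe set shared by ND4 and ND4L, both of complex I, averaged 12.55 ± 0.05 in mated arrays, 12.51 ± 0.09 in SP-infused arrays and 12.38 ± 0.10 in controls (SD, n = 8 each). It differed from control by 0.17 in mated (unadjusted p = 0.00985, adjusted p = 0.349 by limma) and 0.13 in SP-infused arrays (adjusted p = 0.891). COX2, a copper-binding subunit of complex IV, had 2 probe sets. The brighter was 0.12 higher in mated and 0.10 higher in SP-infused than in control arrays, and the dimmer 0.16 and 0.29 higher, none past the adjusted threshold (adjusted p between 0.521 and 0.891 by limma).

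The 7 genes fell into 2 kinds by brightness and spread. ND1, ND3, ND5, CYTB and COX1 were each brighter than at least 99.7% of probe sets on every array, and their SD within groups was between 0.06 and 0.11. ND2 was brighter than between 59.8% and 90.2% of probe sets, depending on the array, with an SD of 0.41 within groups, and ND6 than between 31.7% and 76.8%, with an SD of 0.60. The brightest probe set of each array was between 13.27 and 13.63, so that COX1 and ND5 lay near the top of the scale. That brightest value was itself between 13.27 and 13.57 in mated, between 13.41 and 13.60 in SP-infused and between 13.55 and 13.63 in control arrays, and its part in the small spread of COX1 and ND5 was not tested.

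Single arrays carried several genes up or down together. SP-infused replicate 4 was the lowest of its group in 6 of the 7 genes, all but ND2. Mated replicate 7 was the highest of its group in 5 of the 7, and control replicate 8 the lowest of its group in 4. Control replicate 7, the highest control array for ND3, was also the highest for ND6 and CYTB.

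**Figure D3:**
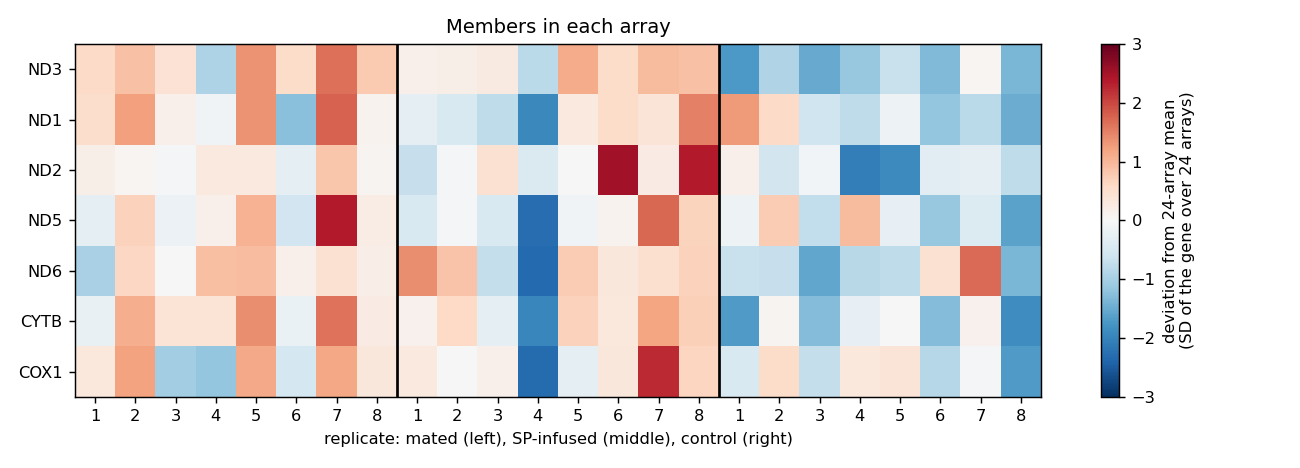
Deviation of each array from the 24-array mean of the gene, in SD of that gene over the 24 arrays (colour), for 7 genes (rows) and 24 arrays (columns, mated left, SP-infused middle, control right). SP-infused replicate 4 is low in 6 genes of its group, mated replicate 7 is high in most genes, and ND3 is below its mean in 7 of 8 control arrays.

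Levels of the bright genes moved together from array to array. Over the 24 arrays the Pearson r of ND3 was 0.825 with CYTB, 0.603 with COX1, 0.550 with ND5 and 0.519 with ND1. Taken as deviations from the group means, which removes the differences between groups, r was 0.740 with CYTB, 0.706 with COX1, 0.586 with ND5 and 0.477 with ND1. The strongest pair among the 7 was ND5 with COX1, at 0.848 over the arrays and 0.860 within groups. ND2 stood apart, with r within groups between 0.08 (CYTB) and 0.51 (ND1). The probe set of ND4 and ND4L followed ND3 more closely than any of the other 6 genes did, at 0.879 over the arrays and 0.763 within groups. These correlations are descriptions over 24 arrays that share sows, processing and the scale of each array.

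**Figure D4:**
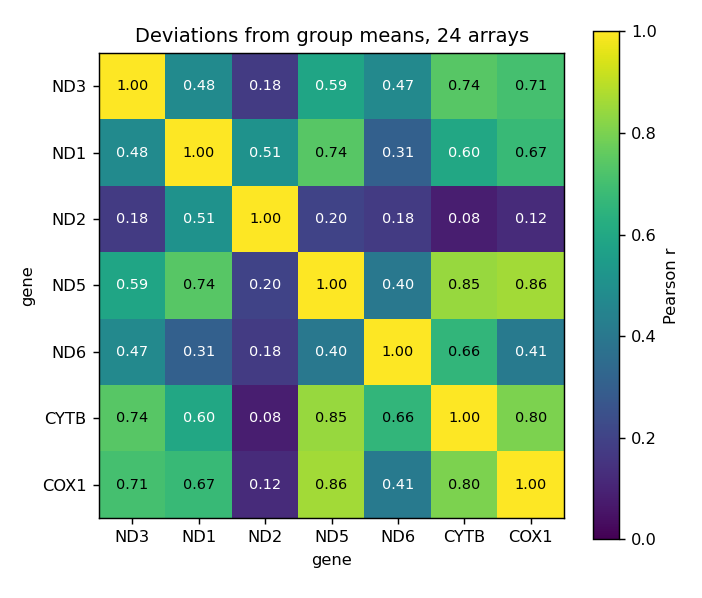
Pearson r between the 7 genes over 24 arrays, computed on deviations from the group means (colour and number). ND5, COX1 and CYTB form the tightest block, from 0.80 to 0.86, and ND2 has the lowest values, down to 0.08.

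Outside the mitochondrial genome, the 5 genes most like ND3 among 12365 genes with 1 symbol, by Pearson r over 24 arrays, were C15H2orf76 (0.814), C14H10orf76 (0.773), HPS5 (0.771), SH3GLB1 (0.745) and GPR107 (0.735). HPS5 is a subunit of a complex that traffics cargo to lysosome-related organelles, and SH3GLB1 is a membrane-curving protein of mitochondria and autophagosomes. Within groups r was 0.659 for C15H2orf76, 0.652 for C14H10orf76, 0.486 for HPS5, 0.702 for SH3GLB1 and 0.604 for GPR107. C15H2orf76 averaged 5.62 ± 0.08 in mated arrays, 5.52 ± 0.24 in SP-infused arrays and 5.17 ± 0.35 in controls (SD, n = 8 each). SH3GLB1 averaged 9.14 ± 0.09 in mated arrays, 9.05 ± 0.11 in SP-infused arrays and 8.96 ± 0.18 in controls. Because they were picked for their likeness to ND3, their order of groups is not a further result.

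Nuclear-encoded subunits of the same complexes were read beside these genes. Of 37 nuclear complex I subunits 31 were measured, of which 15 were higher and 16 lower in mated than in control arrays, with a median difference of -0.02. In SP-infused against control 27 of the 31 were higher, with a median of 0.08, and 1 was higher and 1 lower at an unadjusted p under 0.05. Between mated and SP-infused arrays 7 were higher and 24 lower in mated, with a median of -0.11. None passed the adjusted threshold of limma in any of the 3 comparisons. The unadjusted one was passed by 0 of 31 in mated against control, where 11.4% of all probe sets passed it in either direction, by 2 in SP-infused against control (5.15% of all probe sets) and by 3 in mated against SP-infused (3.34%). Of the nuclear complex IV subunits 5 of 16 were measured, of which 4 were higher in mated and 5 in SP-infused than in control arrays. Only UQCR10 and UQCRB were measured of the 9 nuclear complex III subunits. UQCR10 was at 6.69 ± 0.62 in mated arrays, 6.17 ± 0.74 in SP-infused arrays and 5.65 ± 1.37 in controls (SD, n = 8 each; mated against control 1.03, adjusted p = 0.404 by limma), with a spread in control arrays larger than the difference.

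Of the 32 measured factors that copy, transcribe or process the mitochondrial genome, none passed the adjusted threshold in limma. The unadjusted one was passed by 3 in mated and 2 in SP-infused against control, beside 11.4% and 5.15% of all probe sets in either direction. Higher at that threshold were 2 of 32 in each comparison, beside 2.88% and 1.40% of all probe sets. Of 24 replication and transcription factors 13 were measured, of which 8 were higher in mated and 9 in SP-infused than in control arrays, with medians of 0.06 and 0.02. TEFM, the elongation factor of mitochondrial RNA polymerase, was at 6.46 ± 0.25 in mated arrays, 6.39 ± 0.25 in SP-infused arrays and 6.02 ± 0.33 in controls (SD, n = 8 each). Its differences from control were 0.44 (unadjusted p = 0.00375, adjusted p = 0.337 by limma) and 0.37 (adjusted p = 0.891). POLG, the mitochondrial DNA polymerase, was 0.21 lower in mated than in control arrays (adjusted p = 0.405 by limma).

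Of 26 genes for processing and stability of mitochondrial RNA 19 were measured, of which 16 were higher in mated and 13 in SP-infused than in control arrays, with medians of 0.05 in each. FASTKD2, which binds mitochondrial transcripts, averaged 6.86 ± 0.03 in mated arrays, 6.86 ± 0.15 in SP-infused arrays and 6.66 ± 0.14 in controls (SD, n = 8 each). It was 0.20 higher than control in both groups (adjusted p = 0.349 and 0.891 by limma). KIAA0391, the nuclease subunit of mitochondrial RNase P, was 0.17 and 0.16 higher (adjusted p = 0.552 and 0.891). Of 14 complex I assembly factors 11 were measured, of which 6 were higher in each treated group. TMEM126B, which helps build the membrane arm of complex I, was 0.34 higher in mated and 0.30 higher in SP-infused than in control arrays (adjusted p = 0.349 and 0.891 by limma), and NDUFAF1, of the same assembly complex, 0.21 and 0.14 higher (adjusted p = 0.419 and 0.891).

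Regulators and markers of mitochondrial amount had medians near 0. Of 15 regulators of mitochondrial biogenesis 10 were measured, with 5 higher and 5 lower than control in either treated group and medians of -0.01 and 0.02. Of 20 genes for membrane and matrix proteins used as a gauge of mitochondrial mass 13 were measured, with 7 higher in mated and 10 higher in SP-infused than in control arrays. Their medians were 0.01 in mated and 0.07 in SP-infused arrays against control, and none of either list passed the unadjusted threshold of limma in these comparisons, beside 11.4% of all probe sets against control in mated arrays and 5.15% in SP-infused arrays. VDAC3, a channel of the outer membrane, was 0.23 higher in mated than in control arrays (adjusted p = 0.549 by limma). HSPA9, a matrix chaperone, was 0.17 lower (adjusted p = 0.611).

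**Figure D5:**
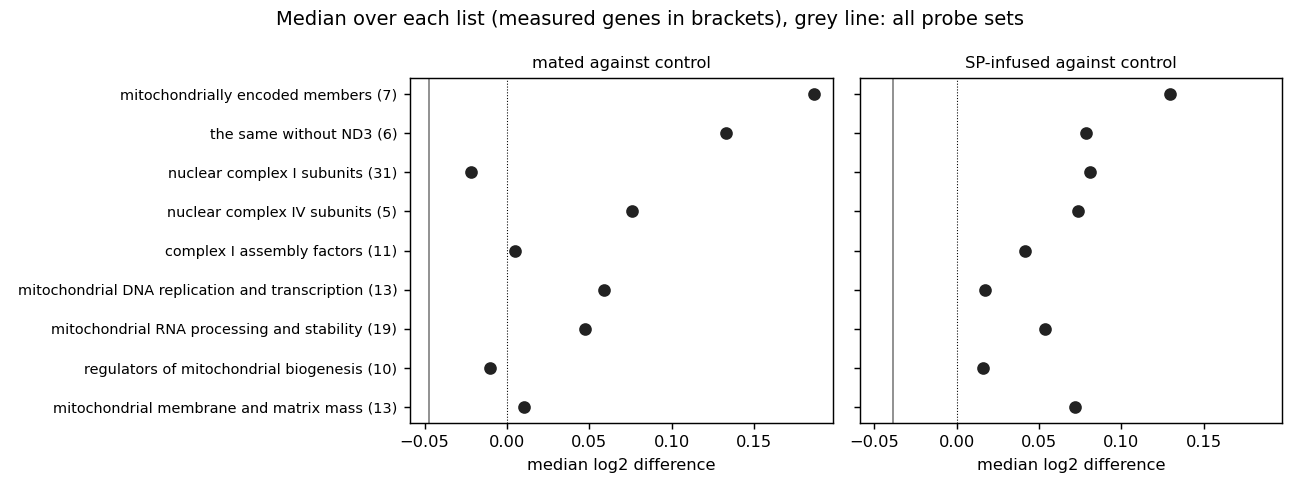
Median log2 difference from control over the 7 mitochondrially encoded genes, the same without ND3, and 7 lists of nuclear genes with at least 3 measured (points; number of measured genes in brackets), for mated (left) and SP-infused (right) arrays; the grey line is the median of all probe sets. The 7 mitochondrially encoded genes are at 0.19 and 0.13, the 6 without ND3 at 0.13 and 0.08, and nuclear complex I subunits at -0.02 and 0.08.

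Markers of the cell types in the tissue also had unequal means between groups, those of endothelium at their median by about as much as ND3. None of them passed the adjusted threshold of limma in any comparison. Among all probe sets, 38.9% were higher than control in mated and 39.2% in SP-infused arrays. All 4 measured endothelial markers of 6 were higher in mated and in SP-infused than in control arrays, with medians of 0.36 and 0.21. Their mean per array ran between 7.91 and 8.37 in mated arrays, between 7.89 and 8.25 in SP-infused arrays and between 7.65 and 8.44 in controls. PECAM1 and TEK, both of endothelial cells, were 0.41 and 0.42 higher in mated than in control arrays (adjusted p = 0.348 for each by limma). The other endothelial markers were uneven, with KDR 0.31 higher and VWF only 0.04 higher (adjusted p = 0.501 and 0.918 by limma). All 6 measured ciliated cell markers of 9 were lower in mated than in control arrays, with a median of -0.23 and a mean per array of 6.37 to 7.83 in mated arrays, 6.59 to 7.62 in SP-infused arrays and 6.75 to 7.86 in controls. In SP-infused arrays they were also lower than in control, with a median of -0.04.

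Of 6 secretory epithelium markers 4 were measured, with 1 higher and 3 lower in mated than in control arrays (median -0.27) and 3 higher and 1 lower in SP-infused than in control arrays (median 0.26). EPCAM, KRT8 and KRT18, all of epithelial cells, were the 3 with lower means in mated arrays, with log2 differences from control of -0.41, -0.26 and -0.27 (adjusted p = 0.424, 0.768 and 0.740 by limma). OVGP1, the oviductal glycoprotein, varied most, at 8.81 ± 1.92 in mated arrays, 8.61 ± 2.39 in SP-infused arrays and 7.23 ± 2.36 in controls (SD, n = 8 each; adjusted p = 0.566 and 0.891 by limma against control). The 4 measured smooth muscle markers of 8 had medians of 0.01 in mated and -0.12 in SP-infused arrays against control, and the 5 measured leukocyte markers of 8 had medians of -0.03 and -0.21. The 4 measured adipocyte markers of 6 were all lower, with medians of -0.26 and -0.15, and the 3 measured skeletal and cardiac muscle markers of 7 were all lower, with medians of -0.17 and -0.20. However, LEP, PLIN1, CIDEC, MYH1 and MYH7 were dim, with means below a log2 value of 5 in every group. Only 38.9% and 39.2% of all probe sets were higher than control in these comparisons. The 3 measured sperm markers of 8 were lower in mated than in control arrays, with a median of -0.16. The part of these cell types in the levels of the mitochondrially encoded genes was not tested.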

How the data were processed

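Total RNA of 24 UTJ samples had been hybridised to 1-colour arrays. Per the labels and the study's methods, the authors summarised the probes by RMA (oligo package) and tested with limma (versions not given in the sources used here). The deposited values are log2 intensities, 1 per probe set and array, and were used as they are. Background correction and normalisation are thus those of the authors, and scanner files were not used here. No further columns of samples were present. Arrays have no read depth, and 8 arrays per group limit the precision.

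One mean per group was fitted over all 24 arrays in limma 3.58.1 under R 4.3.3, with empirical Bayes moderation and Benjamini-Hochberg adjustment over 27558 probe sets. The script was tested on simulated data. Symbols came from GEO's platform annotation, which gives 1 symbol to 13327 probe sets, several to 357 and none to 13874. A symbol repeated within an entry was counted as 1. The genes and gene lists were chosen with earlier results of these data known. Named were all measured members, the 2 genes with the lowest p in mated against control of each list, and the 5 genes most like ND3; ND1 to CYTB were placed by the RefSeq gene table, without coordinates. Further markers (TNP1, ODF1 and PLIN1 among them) and shared probe sets were named for context. Alternatives were pairwise fits, a filter at a mean log2 value of 5, equal array medians, cyclic loess, a trended robust prior, array weights, a replicate block, the mean of a gene's probe sets, and leaving out each array.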

Additional observations from a re-analysis of the deposited data

Results flagged for a closer look

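In 2 of 21 groups examined (7 genes in 3 groups of 8 arrays), 1 array stood apart, its gap to the nearest other array being 0.532 and 0.536 of the whole range of the group, above Dixon's critical value. Chance gives such a gap in about 1 in 20 groups. ND3 in mated replicate 4 was at 12.11, below the next mated array at 12.36 and within the range of the control arrays. CYTB in SP-infused replicate 4 was at 12.41, below the next SP-infused array at 12.64 and below all control arrays. Without mated replicate 4 the difference of ND3 for mated against control was 0.36, and without SP-infused replicate 4 that of CYTB for SP-infused against control was 0.17.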

How the results depend on the processing

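Results were recomputed under 32 alternatives, of which 24 left out 1 array each. Under all of them 0 of the 6 genes tested passed the adjusted threshold. ND3, which was not tested, stayed higher than control, by 0.29 to 0.38 in mated and by 0.24 to 0.31 in SP-infused arrays. The median difference of the 7 genes lay between 0.16 and 0.25 for mated against control and between 0.09 and 0.17 for SP-infused against control. The count at the unadjusted threshold ran between 1 and 3 for mated against control and between 1 and 3 for SP-infused against control when single arrays were left out, and was 2 for SP-infused against control with equal array medians. With cyclic loess, ND1 (-0.0068), ND5 (-0.021) and COX1 (-0.0081) were lower in SP-infused than in control arrays, and with array weights ND6 was lower in mated than in SP-infused arrays (-0.014). When single arrays were left out, COX1 ran between -0.018 and 0.021 and ND6 between -0.17 and 0.18 for mated against SP-infused, and ND5 between -0.0034 and 0.035 for SP-infused against control. The cause was not tested. Equal array medians moved the median of all probe sets for mated against control to 0.01, and the differences of ND1, ND5 and COX1 to 0.14, 0.11 and 0.09. For SP-infused against control it moved these 3 to 0.06, 0.05 and 0.06. Under equal array medians, 2697 probe sets in place of 3142 passed the unadjusted threshold for mated against control.

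The labels give no meaning to a replicate number shared between groups, and each sow had 1 treatment. Arrays of different groups with the same number had correlated deviations (r over 0.1) in 9 of 24 pairs, and 4 of 24 arrays correlated best with their own number, so the numbers were not taken to pair arrays. Which arrays within a group share a sow was not tested. With the replicate block, the unadjusted count was 2 for mated against control and 1 for SP-infused against control, as without it. Signal over background was not available in the values used here.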
